A study of Mus musculus with 12 samples.

Results

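The ribosome biogenesis factors described here are 41 mouse genes that encode nucleolar processing and assembly proteins. Members were chosen by name, with no measured value in the rule but with earlier results of these data known. Counts of called members therefore describe this list and are no independent test. The genes were found on the array as probe sets whose gene symbol is among the 41. A probe set is a group of array probes read as 1 value. Of the 41 genes, 40 have a probe set of their own, among 19938 genes measured that way, and Ppan is read only by a probe set it shares with another gene. Ribosomes are built in the nucleolus, where RNA polymerase I copies ribosomal DNA into a long precursor RNA. Small nucleolar ribonucleoproteins (snoRNPs) modify that RNA, and separate sets of factors cut, fold and assemble it into the small and the large subunit. In growing cells, blood progenitors among them, this pathway is known as a large consumer of energy, and the transcription factor Myc is known as one of its activators.

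RNA was measured in 4 groups of 3 arrays: Myc Zfx ko, GFP Zfx ko, Myc Zfx wt and GFP Zfx wt. The cells of every group came from bone marrow, were progenitors positive for c-Kit, and their donors all carried CreER, a Cre recombinase that tamoxifen switches on, and were all given tamoxifen, wt mice included. The ko mice are labelled Zfx fl/y CreER and the wt mice Zfx wt/y CreER; Zfx is an X-linked zinc finger gene, and the promoter that drives CreER is not named in the labels. Cells were infected with a retrovirus that carries Myc and a GFP marker, or with the control retrovirus that carries GFP, kept in culture with IL-3, IL-6 and SCF for 48 hours, sorted for GFP and cultured for 4 more days. The Myc groups therefore carry added Myc on top of the cells' own, and the cells of all groups had grown outside the animal. Animal ages, and whether arrays with the same replicate number come from 1 animal or 1 culture, are not given in the labels, so p-values here measure only the spread between arrays, which may be technical.

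The Zfx probe set did not follow the genotype labels: it averaged 1048 ± 63.2 on Myc Zfx ko arrays and 992 ± 26.4 on Myc Zfx wt arrays, and 1021 ± 64.9 on GFP Zfx ko arrays and 946 ± 72.9 on GFP Zfx wt arrays (SD, n = 3 each), with limma adjusted p of 0.789 and 0.619. Which exons its probes cover is not given here, so the array does not show the deletion, and ko stands for the arrays labelled Zfx ko. The Myc probe set followed the virus label, with 1.87-fold more signal under Myc virus in ko cells (adjusted p = 0.000342) and 1.74-fold more in wt cells (adjusted p = 0.000724). Markers of the labelled cells were present: all 10 myeloid progenitor genes, among them Mpo, Elane and Kit, lay above the array medians, which ran between 127 and 137. The 4 measured T cell markers lay below those medians in every group. Markers of other lineages had signal: in any group, 0 of 6 measured monocyte and macrophage markers and 0 or 1 of 13 neutrophil markers lay below the median over all arrays. Below it were also 3 of 4 measured B cell markers in every group, and 1 to 7 of 12 mast cell and basophil markers. Array GFP Zfx ko 1 stood apart for the genes described here: its mean log2 intensity over the 40 members was 10.25, against 10.44 to 10.61 on the other GFP arrays and 10.98 to 11.12 on the Myc arrays, and 33 of the 40 members had their lowest value there.

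Values are RMA intensities on a linear scale, and changes are differences of log2 intensity between group means. A gene was called changed at a limma p-value under 0.05 after Benjamini-Hochberg adjustment over all 19938 genes. Promoter sequences of a few members are shown for the E-box CACGTG, to which Myc with its partner Max is known to bind. The windows run 250 bases before to 50 bases from the gene start on, 5′ to 3′ along the gene, and are RefSeq sequences of build GRCm38.p6. Capitals mark CACGTG. Nop2, Pes1, Tsr1 and Mybbp1a have it at different distances from the start, and Rrp9, the member with the highest change under Myc, does not have it in this window.
Nop2, chr6:125131633-125131932, plus strand: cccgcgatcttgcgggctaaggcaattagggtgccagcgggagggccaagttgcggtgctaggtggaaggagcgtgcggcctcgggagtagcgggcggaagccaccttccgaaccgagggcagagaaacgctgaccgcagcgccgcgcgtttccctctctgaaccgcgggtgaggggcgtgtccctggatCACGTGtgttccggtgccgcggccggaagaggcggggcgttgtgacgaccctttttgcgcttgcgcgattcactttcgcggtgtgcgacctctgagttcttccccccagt
Pes1, chr11:3963725-3964024, plus strand: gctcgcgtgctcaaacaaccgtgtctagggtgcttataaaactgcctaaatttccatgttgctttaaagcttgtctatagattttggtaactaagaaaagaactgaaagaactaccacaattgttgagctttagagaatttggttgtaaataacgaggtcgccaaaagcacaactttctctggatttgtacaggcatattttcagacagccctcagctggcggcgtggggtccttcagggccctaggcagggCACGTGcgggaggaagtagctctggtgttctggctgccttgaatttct
Tsr1, chr11:74897830-74898129, plus strand: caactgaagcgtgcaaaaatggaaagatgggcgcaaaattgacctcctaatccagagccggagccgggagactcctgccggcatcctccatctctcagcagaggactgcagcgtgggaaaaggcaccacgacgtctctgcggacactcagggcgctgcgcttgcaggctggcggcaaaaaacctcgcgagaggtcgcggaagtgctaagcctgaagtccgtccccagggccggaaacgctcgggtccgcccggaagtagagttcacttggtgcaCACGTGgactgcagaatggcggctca
Mybbp1a, chr11:72441077-72441376, plus strand: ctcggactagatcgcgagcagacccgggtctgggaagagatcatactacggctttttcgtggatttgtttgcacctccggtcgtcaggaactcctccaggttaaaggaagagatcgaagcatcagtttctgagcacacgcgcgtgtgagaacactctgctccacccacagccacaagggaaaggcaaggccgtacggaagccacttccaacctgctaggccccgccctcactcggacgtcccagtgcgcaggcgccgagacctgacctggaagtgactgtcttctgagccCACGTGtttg
Rrp9, chr9:106477059-106477358, plus strand: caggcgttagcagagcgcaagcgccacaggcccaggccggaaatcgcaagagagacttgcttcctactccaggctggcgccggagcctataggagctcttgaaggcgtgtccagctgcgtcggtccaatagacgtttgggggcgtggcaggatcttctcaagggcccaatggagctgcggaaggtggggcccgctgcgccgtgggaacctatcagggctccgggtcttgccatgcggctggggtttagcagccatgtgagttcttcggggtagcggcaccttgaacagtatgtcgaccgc

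Windows were found for 35 of the 41 members. CACGTG, which reads the same on both strands, occurred in 7 of the 35 (20.0%): Mybbp1a, Nop2, Pes1, Pno1, Tsr1, Utp20 and Wdr43. In Nop2 its first base lay 60 bases before the start, and in Tsr1 and Mybbp1a 24 and 40 bases after the first base of the gene. Among all 15614 tested genes with a window the share was 9.50%, and among 66 other genes of the pathway it was 22.7%. The variant E-box CACGCG, searched on both strands, was in a window of 34.3% of these members, 31.8% of the other pathway genes and 14.9% of all genes with a window. AGGCCT, a palindrome at the core of the motif known for Zfx, was in a window of 2.86% of these members (1 of 35, Ubtf), 6.06% of the other pathway genes and 11.7% of all genes with a window. Shares count genes with a match in at least 1 window, since some genes have several. A match is a match of letters and not a site. The median GC content of the windows was 59.3% for members and 57.3% for all genes tested, and the part of base composition in these shares was not tested. The 7 members with CACGTG had a median log2 change under Myc of 0.62 in ko cells and 0.58 in wt cells, and the 27 measured members with a window but no CACGTG had 0.60 in ko cells and 0.61 in wt cells.

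**Figure D1:**
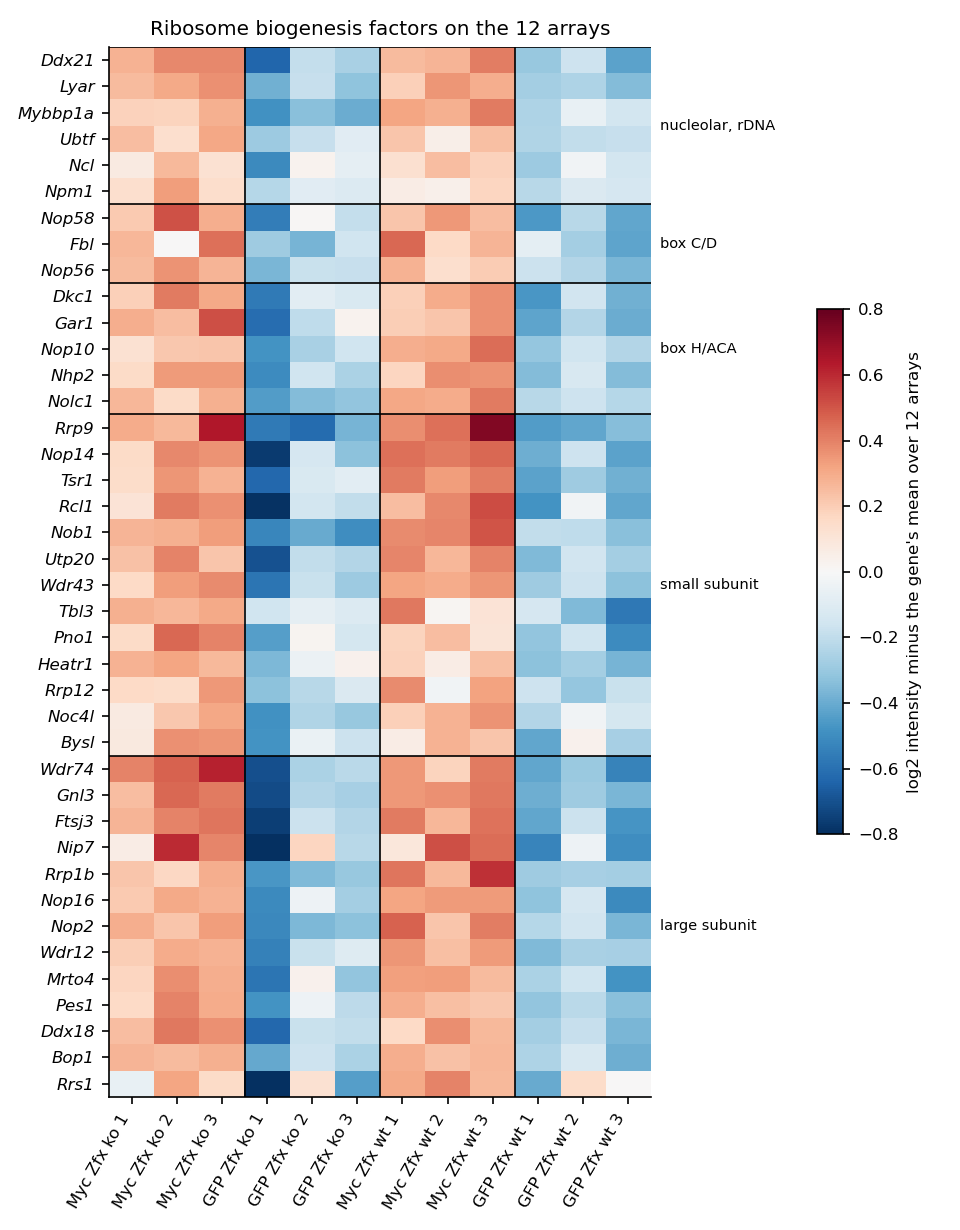
Log2 intensity of the 40 measured members (rows, by role) on the 12 arrays (columns), as the difference from each gene's mean over all arrays; red is above and blue below that mean. Myc arrays are above and GFP arrays below the mean in nearly every row, and array GFP Zfx ko 1 is the lowest for 33 members.

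The first question was what the Myc virus does to these genes. In Zfx ko cells 37 of the 40 members rose under Myc and 0 fell, and in Zfx wt cells 35 rose and 0 fell; over all 40 the change was 1.26-fold to 1.89-fold in ko cells and 1.19-fold to 1.89-fold in wt cells. All 5 roles took part, from snoRNP proteins to large subunit factors. For comparison, 8.58% of all genes were called higher and 4.59% lower in ko cells, and 6.17% higher and 3.11% lower in wt cells. The median log2 change of the members was 0.57 in ko cells and 0.58 in wt cells, where the medians of all genes tested were 0.01 and 0.00. Every member was higher under Myc in each of the 3 same-numbered array pairs of both genotypes, and in 38 of the 40 every one of the 6 Myc arrays lay above every one of the 6 GFP arrays. The exceptions were Rrs1 and Nip7. Shares of all genes were not computed for the pair count or for this separation, so both describe the members only. Within a genotype, the Myc and GFP arrays did not overlap for 38 of the 40 members in ko cells (15.6% of all genes did so in that direction) and for 40 of 40 in wt cells (15.1%). The call count in wt cells rests in part on single arrays: 23 members were called without array Myc Zfx wt 3, and 23 without GFP Zfx wt 3, while the median log2 change stayed at 0.54 or above. In ko cells 27 members were called without Myc Zfx ko 3, 29 without Myc Zfx ko 2 and 30 without GFP Zfx ko 1, and without the last the median change of all 40 was 0.47. With only the 2 groups compared in the fit, 23 were called in ko cells; the 14 lost were Bysl, Dkc1, Fbl, Gar1, Heatr1, Mrto4, Nop14, Nop58, Npm1, Pes1, Pno1, Rcl1, Tsr1 and Wdr12. With each array left out in turn, 26 of the 37 calls in ko cells and 21 of the 35 in wt cells held every time. Those that did not were Bysl, Dkc1, Fbl, Gar1, Mrto4, Nop58, Pno1, Rcl1, Rrp12, Tbl3 and Tsr1 in ko cells, with adjusted p of up to 0.144 over the alternatives tried (limma). In wt cells they were Ddx18, Dkc1, Fbl, Ftsj3, Gar1, Mrto4, Noc4l, Nop58, Pno1, Rcl1, Rrp12, Tbl3, Ubtf and Utp20, with adjusted p of up to 0.140. The share of all genes called was not computed for fits with an array left out or with only the groups compared.

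**Figure D2:**
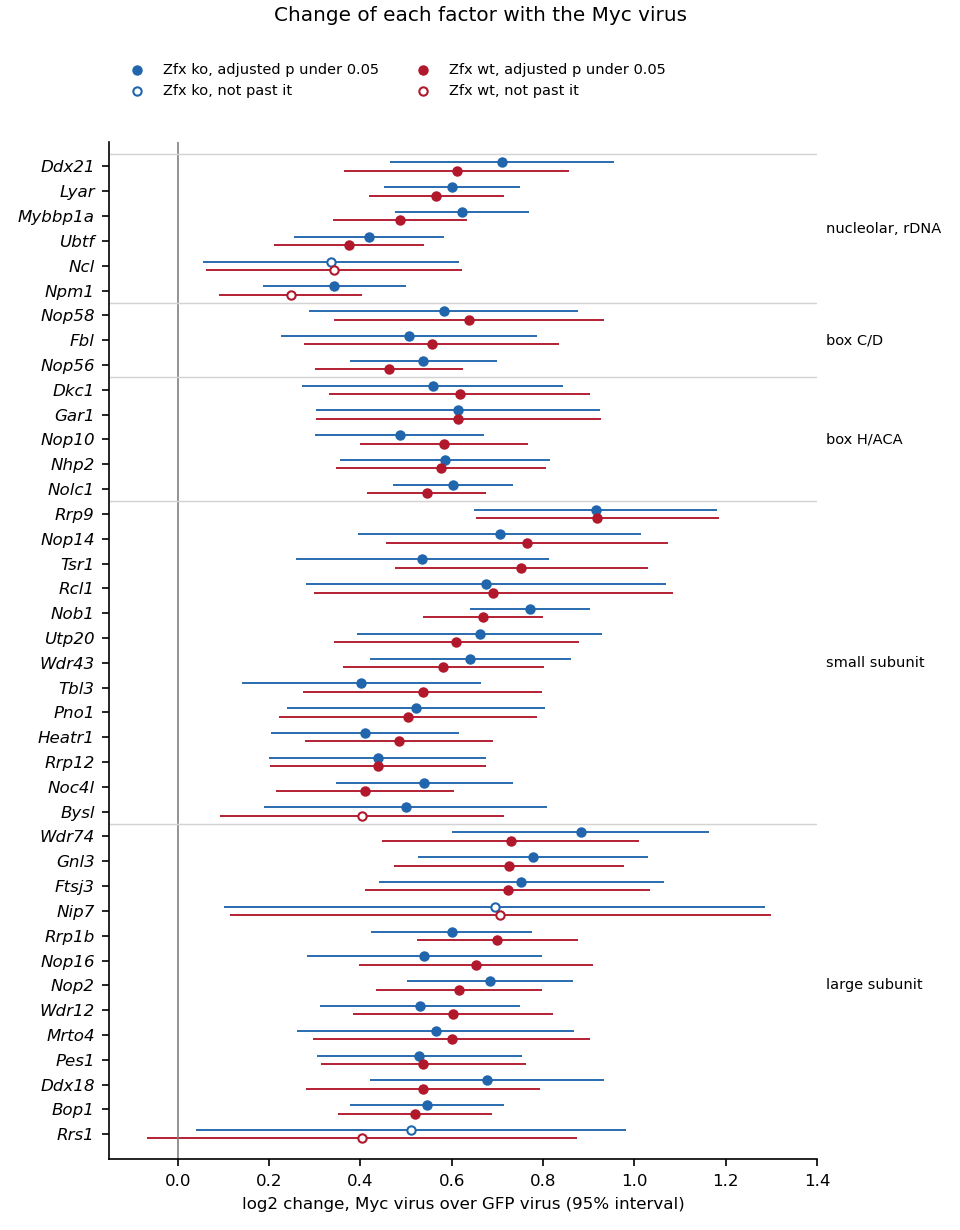
Log2 change of each measured member, Myc virus over GFP virus, in Zfx ko (blue) and Zfx wt (red) cells with 95% intervals; filled points passed the adjusted threshold. All 80 points lie right of 0, between 0.25 for Npm1 and 0.92 for Rrp9, and the open points are Npm1 and Bysl in wt cells and Ncl, Rrs1 and Nip7 in both genotypes.

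Among nucleolar proteins and factors of ribosomal DNA transcription, 5 of 6 rose in ko cells and 4 of 6 in wt cells, with median log2 changes of 0.51 and 0.43. Ubtf, which bends ribosomal DNA and recruits RNA polymerase I, read 3299.6, 3052 and 3458 on the Myc Zfx ko arrays, against 2275, 2450.1 and 2618 on the GFP Zfx ko arrays. In wt cells Ubtf read 3244, 2872 and 3286 on the Myc arrays, against 2357, 2433 and 2451 on the GFP arrays. Every Myc array was above every GFP array, by 1.34-fold in ko cells (limma adjusted p = 0.00533) and 1.30-fold in wt cells (0.0114). Ddx21, an RNA helicase that acts in both transcription and processing of ribosomal RNA, had the highest change of this role in both genotypes, 1.64-fold in ko cells (limma adjusted p = 0.00311) and 1.53-fold in wt cells (0.00832). Lyar, a nucleolar protein of growing cells, rose 1.52-fold and 1.48-fold in the same order.

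The abundant nucleolar proteins nucleolin (Ncl), which binds the precursor RNA, and nucleophosmin (Npm1), a histone and ribosome chaperone, had the lowest changes of all members. Npm1 read 5003, 5754 and 5027 on the Myc Zfx ko arrays, against 3899, 4292 and 4236 on the GFP Zfx ko arrays. In wt cells Npm1 read 4756, 4693 and 5145 on the Myc arrays, against 3912, 4217 and 4164 on the GFP arrays. Neither pair of groups overlapped, and the log2 change was 0.34 in ko cells (SE 0.07, limma adjusted p = 0.0104) and 0.25 in wt cells (SE 0.07, adjusted p = 0.0558), the second short of the threshold. For Ncl the Myc Zfx ko arrays read 7288, 8311 and 7553, against 4870.2, 7081 and 6592 on the GFP Zfx ko arrays. The Ncl values in wt cells were 7567, 8233 and 7886 under Myc, against 5657, 6804 and 6256 under GFP. Array GFP Zfx ko 1 was the lowest of the 12, and the log2 change of 0.34 in each genotype had limma adjusted p of 0.122 in ko cells and 0.136 in wt cells. With the replicate number as a block in the fit, all of these passed: Ncl at adjusted p = 0.0118 in ko cells and 0.0132 in wt cells, and Npm1 at 0.0168 in wt cells. Npm1 is also read by 3 probe sets shared with a predicted gene, Gm15484, whose log2 changes were 0.18 to 0.21 in ko cells and 0.10 to 0.16 in wt cells, with 0 past the threshold over all probe sets.

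All 3 box C/D snoRNP proteins rose in both genotypes, with medians of 0.54 in ko cells and 0.56 in wt cells. Box C/D snoRNPs methylate ribosomal RNA. Nop56, a core scaffold protein, averaged 5643 ± 228 on Myc Zfx ko arrays and 3891 ± 279.9 on GFP Zfx ko arrays, and 5303 ± 265 on Myc Zfx wt arrays and 3849.9 ± 263 on GFP Zfx wt arrays (SD, n = 3 each). Its partner Nop58 rose by 0.58 in ko cells (limma adjusted p = 0.0166) and 0.64 in wt cells (0.0143) on the log2 scale. Fibrillarin (Fbl), the methyltransferase of the particle, read 2349, 1958 and 2655 on the Myc Zfx ko arrays, against 1608, 1514 and 1749.9 on the GFP Zfx ko arrays. In wt cells it read 2692, 2185 and 2368 under Myc, against 1851, 1624 and 1458 under GFP. Array number 2 was the lowest Fbl value among Myc arrays of both genotypes, yet still above every GFP array. A further probe set of Fbl gave log2 changes of 0.66 in ko cells and 0.55 in wt cells, against 0.51 and 0.56 for the one used.

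All 5 members of the box H/ACA role rose in both genotypes, with a median log2 change of 0.58 in each. Box H/ACA snoRNPs convert uridine to pseudouridine. Dyskerin (Dkc1), the pseudouridine synthase, read 2317, 2713 and 2504 on the Myc Zfx ko arrays, against 1375, 1918 and 1869 on the GFP Zfx ko arrays. In wt cells Dkc1 read 2322, 2501 and 2615 under Myc, against 1474, 1828 and 1559.8 under GFP. The groups were separate in both genotypes, and the spread was wider under GFP. The log2 changes were 0.56 in ko cells (SE 0.13, limma adjusted p = 0.0173) and 0.62 in wt cells (SE 0.13, adjusted p = 0.0143). Its partners Nhp2, Nop10 and Gar1 rose by 1.40-fold to 1.53-fold over both genotypes. Nolc1, a chaperone of snoRNPs, had the lowest p of the role, with a 1.52-fold rise in ko cells (limma adjusted p = 0.000558) and 1.46-fold in wt cells (0.00136).

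Of the 13 small subunit factors, 13 rose in ko cells and 12 in wt cells, with medians of 0.54 and 0.58. Rrp9, a protein particular to the U3 snoRNP that starts small subunit processing, read 1617, 1572 and 2048 on the Myc Zfx ko arrays, against 888, 859 and 1017 on the GFP Zfx ko arrays. In wt cells Rrp9 read 1705, 1788 and 2195 under Myc, against 966, 985 and 1040.2 under GFP. Replicate 3 was the highest Rrp9 value in all 4 groups, and the lowest Myc array lay above the highest GFP array in each genotype. Its 1.89-fold rise in both genotypes was the highest of all members (95% interval 1.57 to 2.27 in ko cells and 1.57 to 2.27 in wt cells).

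Nob1, the endonuclease that makes the final cut at the end of the small subunit RNA, had the lowest p of all members in both genotypes. It read 2025, 2037 and 2109 on the Myc Zfx ko arrays, against 1165, 1264 and 1186 on the GFP Zfx ko arrays. In wt cells it read 2174, 2193 and 2372 under Myc, against 1459, 1454 and 1328 under GFP. Replicates lay close together, and the changes were 1.71-fold in ko cells (limma adjusted p = 0.000265) and 1.59-fold in wt cells (0.000701). Nop14, which together with Noc4l helps assemble the early processing particle, read 1053, 1236 and 1217 on the Myc Zfx ko arrays, against 559, 864 and 756 on the GFP Zfx ko arrays. In wt cells Nop14 read 1287, 1264 and 1307 under Myc, against 724, 848 and 706 under GFP. Here too the groups were separate, with a 1.63-fold rise in ko cells (limma adjusted p = 0.00869) and 1.70-fold in wt cells (0.00845).

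Tsr1, a late assembly factor related to GTPases, had the widest gap between the genotypes. It read 1104, 1271 and 1209 on the Myc Zfx ko arrays, against 645, 917 and 941 on the GFP Zfx ko arrays. In wt cells Tsr1 read 1328, 1256 and 1323 under Myc, against 741, 817 and 763 under GFP. Both changes passed, at 1.45-fold in ko cells (limma adjusted p = 0.0183) and 1.68-fold in wt cells (0.00586), and the test of their difference stands with the comparison of genotypes. Utp20, Wdr43, Heatr1 and Tbl3, scaffold proteins of the early processing particle, rose by 1.32-fold to 1.58-fold in ko cells and 1.40-fold to 1.53-fold in wt cells. Pno1, a partner of Nob1, Rcl1, which acts in cutting the precursor, and Rrp12, which helps export the particle, rose by 1.35-fold to 1.60-fold in ko cells and 1.36-fold to 1.61-fold in wt cells.

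Bysl, an assembly factor of the small subunit, was the one member of this role that missed the threshold in wt cells. The Myc Zfx ko arrays read 806, 985 and 976, against 549, 738 and 678 on the GFP Zfx ko arrays. In wt cells Bysl read 795, 928 and 892 under Myc, against 572, 783 and 635 under GFP. In all 4 groups replicate 1 was the lowest, and the Myc and GFP arrays did not overlap within a genotype. Its log2 change was 0.50 in ko cells (limma adjusted p = 0.0407) and 0.40 in wt cells (adjusted p = 0.111, and 0.00209 with the replicate block).

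Of the 13 measured large subunit factors, 11 rose in each genotype, with medians of 0.60 in ko cells and 0.62 in wt cells. Gnl3 (nucleostemin), a nucleolar GTPase of stem and progenitor cells, read 2901, 3362 and 3274 on the Myc Zfx ko arrays, against 1493, 2085 and 2034 on the GFP Zfx ko arrays. In wt cells Gnl3 read 3121, 3162 and 3280.5 under Myc, against 1871, 2009 and 1901 under GFP. The lowest Myc array was above the highest GFP array by a wide margin, with a 1.72-fold rise in ko cells (limma adjusted p = 0.00225) and 1.65-fold in wt cells (0.00474). Wdr74, which acts in remodelling the precursor of the large subunit, read 1925, 2024 and 2236 on the Myc Zfx ko arrays, against 899, 1229 and 1259 on the GFP Zfx ko arrays. In wt cells Wdr74 read 1857, 1656 and 1949 under Myc, against 1097, 1188 and 1009.5 under GFP. It had the second highest change in ko cells, 1.84-fold (limma adjusted p = 0.00216), and 1.66-fold in wt cells (0.00689).

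The PeBoW complex, which is needed to process the large subunit RNA, has Pes1, Bop1 and Wdr12 as its members, and they rose together. Bop1 averaged 2616 ± 30.8 on Myc Zfx ko arrays and 1795 ± 151 on GFP Zfx ko arrays, and 2604 ± 47.6 on Myc Zfx wt arrays and 1821 ± 165 on GFP Zfx wt arrays (SD, n = 3 each). Pes1 rose 1.44-fold in ko cells and 1.45-fold in wt cells, and Wdr12 rose 1.45-fold and 1.52-fold in the same order. A further probe set of Wdr12, with a weaker signal, gave 1.74-fold in ko cells and 1.79-fold in wt cells. Nop2 and Ftsj3, methyltransferases of the large subunit RNA, rose by 1.61-fold and 1.68-fold in ko cells and by 1.53-fold and 1.65-fold in wt cells. The helicase Ddx18, the nucleolar proteins Rrp1b and Nop16, and Mrto4, which holds the place of a stalk protein, also rose. Their changes were 1.45-fold to 1.60-fold in ko cells and 1.45-fold to 1.62-fold in wt cells. For Ddx18, another probe set gave log2 changes of 0.74 in ko cells and 0.49 in wt cells. The one used gave 0.68 and 0.54. The further probe set of Mrto4 had log2 changes of 0.50 and 0.55 with adjusted p of 0.0786 in ko cells and 0.0701 in wt cells over all probe sets (limma). Ppan, also a large subunit factor, is read only by the probe set it shares with B130055M24Rik, which averaged 2204 on Myc Zfx ko arrays and 1419.9 on GFP Zfx ko arrays, and 2235 on Myc Zfx wt arrays and 1376 on GFP Zfx wt arrays. Its log2 changes of 0.64 and 0.70 had limma adjusted p of 0.00407 and 0.00507 over all probe sets, and belong to the pair of genes.

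Rrs1 and Nip7, factors of large subunit assembly with weaker signal, missed the threshold in both genotypes although their mean changes were not low. Nip7 read 556, 808 and 698 on the Myc Zfx ko arrays, against 269.7, 599.9 and 458 on the GFP Zfx ko arrays. In wt cells Nip7 read 568, 764 and 727 under Myc, against 369.6, 519 and 378 under GFP. Replicate 1 was lowest and replicate 2 highest in all 4 groups, and the ko groups overlapped. Rrs1 read 321, 416 and 373 on the Myc Zfx ko arrays, against 192, 365 and 246 on the GFP Zfx ko arrays. In wt cells Rrs1 read 412, 441 and 401 under Myc, against 253, 370.5 and 335 under GFP. It followed the same order of replicates in 3 of the groups and overlapped in ko cells. The log2 changes of Nip7 were 0.69 in ko cells (SE 0.27, limma adjusted p = 0.131) and 0.71 in wt cells (SE 0.27, adjusted p = 0.147). Those of Rrs1 were 0.51 (SE 0.21, adjusted p = 0.165) and 0.40 (SE 0.21, adjusted p = 0.346). With the replicate block both passed in both genotypes, Nip7 at adjusted p of 0.00442 in ko cells and 0.00527 in wt cells, and Rrs1 at 0.0150 and 0.0495. The block brought the members called to 40 of 40 in each genotype, where it called 14.5% of all genes higher in ko cells and 12.2% in wt cells.

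Of 81 other genes of the pathway, 79 were measured, and 59 rose in ko cells and 53 in wt cells, with 0 lower in either (73 and 69 with the replicate block). Their median log2 changes were 0.51 in ko cells and 0.50 in wt cells. The lowest p in both genotypes was that of the RNA helicase Ddx51, at log2 changes of 0.64 (SE 0.06, limma adjusted p = 0.000585) and 0.67 (SE 0.06, adjusted p = 0.000724). Polr1b, the second largest subunit of RNA polymerase I, rose by 0.78 in ko cells and 0.73 in wt cells on the log2 scale. Wdr46, a scaffold protein of the early small subunit particle, rose by 0.51 and 0.48. Ttf1, which stops transcription of ribosomal DNA, had log2 changes of 0.04 in ko cells (adjusted p = 0.955) and -0.11 in wt cells (adjusted p = 0.830), so the rise did not take in every gene of the pathway.

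**Figure D3:**
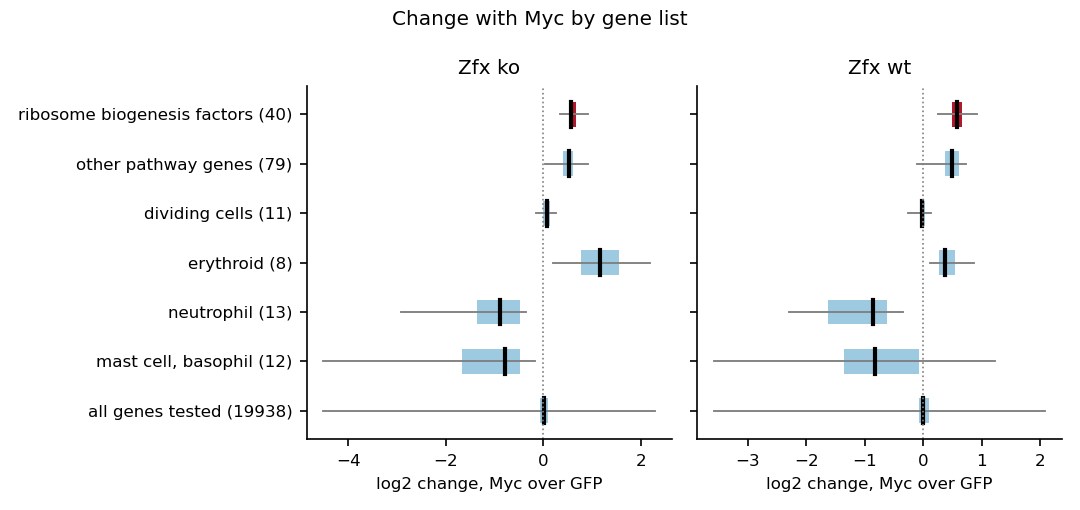
Log2 change, Myc over GFP, by gene list in Zfx ko (left) and Zfx wt (right) cells; boxes run between the quartiles, the black bar is the median, grey lines reach the lowest and highest gene, and the number measured is in brackets. The 40 members (red) have medians of 0.57 in ko and 0.58 in wt cells, while the medians of the dividing-cell genes and of all genes lie within 0.08 of 0.

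Markers of the labelled cells and of other cells moved under Myc along with these genes. In bulk RNA, fewer cells of a type and less RNA per cell cannot be told apart. All 10 myeloid progenitor markers had negative log2 changes in both genotypes, with medians of -0.37 in ko cells and -0.23 in wt cells; 2 were called lower in ko cells and 1 in wt cells (8 and 3 with the replicate block). Their summed intensity was 50828 to 62257 on Myc Zfx ko arrays, against 61172 to 73454 on GFP Zfx ko arrays, and 62190 to 69476 on Myc Zfx wt arrays, against 70788 to 82170 on GFP Zfx wt arrays. All 6 measured monocyte and macrophage markers had negative changes too, with 0 called in either genotype (3 lower in ko cells and 1 in wt cells with the block). Of 13 neutrophil markers 9 were called lower in ko cells and 7 in wt cells (13 and 12 with the block), and their summed intensity was 49777 to 55294 on Myc Zfx ko arrays and 77014 to 95584 on GFP Zfx ko arrays, and 39408 to 52107 on Myc Zfx wt arrays and 73714 to 90246 on GFP Zfx wt arrays. Of 12 mast cell and basophil markers 6 were lower in ko cells (8 with the block), and 7 were lower and 1 higher in wt cells, and the protease Mcpt2 had log2 changes of -4.51 in ko cells and -3.58 in wt cells. Of 8 measured erythroid markers 5 were higher in ko cells and 1 in wt cells (7 and 3 with the block), with sums of 6011 to 11252 on Myc Zfx ko arrays and 4392 to 5062 on GFP Zfx ko arrays, and 4766 to 6376 on Myc Zfx wt arrays and 3829 to 4778 on GFP Zfx wt arrays. Their part in the rise of the ribosome biogenesis factors was not tested. Of 11 measured genes of dividing cells, 1 (Mcm2, log2 change 0.25) was higher in ko cells (2 with the block) and 1 (Mki67, -0.27) lower in wt cells. Their sum was 43749 to 45633 on Myc Zfx ko arrays and 42134 to 44952 on GFP Zfx ko arrays, and 45298 to 46136 on Myc Zfx wt arrays and 46755 to 47066 on GFP Zfx wt arrays. Their part in the members' rise was not tested either.

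The 4 groups also allow the Myc response to be compared between the genotypes. For the members no difference between the genotypes was called: the change under Myc in ko cells minus that in wt cells gave 0 of 40 past the threshold in limma, and 0 of 40 at an unadjusted p under 0.05. Of all genes 0% were called in either direction, and at the unadjusted p 0.878% were higher and 0.843% lower. The replicate block also called 0 members (0.00502% of all genes lower, 0% higher). The median difference was 0.01 on the log2 scale, between -0.22 for Tsr1 (95% interval -0.61 to 0.17) and 0.15 for Wdr74 (-0.25 to 0.55). The 95% interval held 0 for 40 of 40 members, and for 37 of 40 it excluded differences of 1.5-fold either way. Nip7 had the widest, -0.85 to 0.83. The sign of the difference followed the replicate number: it was positive for 35 of 40 members in pair 1, 24 in pair 2 and 5 in pair 3. Without array GFP Zfx ko 1 the median difference was -0.10. The comparisons of Myc with GFP in ko and in wt cells share no array.

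The comparison of Zfx ko with Zfx wt cells under Myc virus showed little movement of the members. In limma 0 of the 40 were called (adjusted p of 0.231 or more), while 1.74% of all genes were called higher and 3.72% lower. At an unadjusted p under 0.05, 1 was lower (9.08% of all genes were lower and 6.75% higher), and the replicate block called 0 (6.05% of all genes higher and 8.03% lower). The median log2 difference was -0.02 (-0.20 to 0.18), and for 38 of 40 members the 95% interval excluded 1.5-fold either way. Rrp1b, a nucleolar protein of large subunit assembly, had the lowest p. It read 1854, 1781 and 1942 on the Myc Zfx ko arrays, against 2140.3, 1904 and 2385 on the Myc Zfx wt arrays. The highest ko array was above the lowest wt array, and the difference was -0.20 (SE 0.08, adjusted p = 0.231). For 5 members every ko array was below every wt array (11.1% of all genes), and for 1, Heatr1, above (8.40%). Under Myc virus 4 of 8 erythroid markers were higher in ko cells (6 with the block). Lower were 3 of 12 mast cell and basophil markers (4 with the block) and 1 of 10 myeloid progenitor markers (5 with the block). Of 13 neutrophil markers 1 was higher (3 with the block), of 6 monocyte and macrophage markers 0 (1 with the block), and of 11 dividing-cell genes 1 was lower. Called or not, differences were negative for 7 of 11 dividing-cell genes, 12 of 12 mast cell and basophil markers and 10 of 10 myeloid progenitor markers. They were positive for 11 of 13 neutrophil, 5 of 6 monocyte and macrophage and 7 of 8 erythroid markers. Of all 19938 genes, 10088 had negative differences. The part of these markers was not tested.

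**Figure D4:**
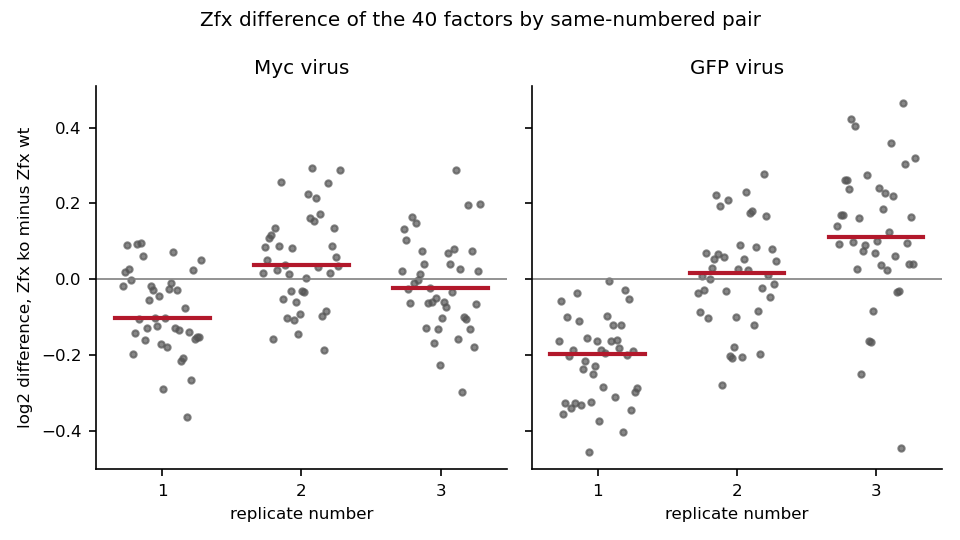
Log2 difference of each measured member, Zfx ko minus Zfx wt, by replicate number under Myc virus (left) and GFP virus (right); each point is 1 gene and red bars are medians. Under GFP virus all 40 points of pair 1 lie below 0 (median -0.20), and 33 of pair 3 lie above it (median 0.11).

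Under GFP virus 0 of the 40 members were called in the comparison of Zfx ko with Zfx wt cells, in either direction, while 1.17% of all genes were called higher and 2.94% lower. At an unadjusted p under 0.05 in limma, 0 were higher (5.86% of all genes) and 4 lower (8.75%). The median log2 difference was -0.02 (-0.29 to 0.24), and it depended on the pair: all 40 members were lower in ko cells in pair 1, 18 in pair 2 and 7 in pair 3, with medians of -0.20, 0.02 and 0.11. Leaving out GFP Zfx ko 1, whose values were low for most members, moved the median to 0.08. With the replicate block 3 members fell in ko cells, where it called 7.12% of all genes lower and 5.12% higher: Mybbp1a, Nob1 and Noc4l.

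Mybbp1a, a nucleolar protein that binds Myb and takes part in ribosomal RNA processing, read 2348, 2599.5 and 2497 on the GFP Zfx ko arrays, against 2767, 3153 and 2971 on the GFP Zfx wt arrays. Nob1 read 1165, 1264 and 1186 on the GFP Zfx ko arrays, against 1459, 1454 and 1328 on the GFP Zfx wt arrays. Noc4l read 1499, 1775 and 1696 on the GFP Zfx ko arrays, against 1783, 2049 and 1900.4 on the GFP Zfx wt arrays. In all of these every ko array was below every wt array, as also in Nolc1 and Rrp1b, for a total of 5 members (10.5% of all genes). The log2 differences were -0.26 for Mybbp1a (SE 0.07, limma adjusted p = 0.0635, and 0.0177 with the block), -0.23 for Nob1 (SE 0.06, 0.0614 and 0.0338) and -0.21 for Noc4l (SE 0.09, 0.294 and 0.0342). Under Myc virus the same genes had differences of -0.12, -0.13 and -0.08, none of them called with or without the block. The 2 comparisons of ko with wt cells share no array. Heatr1, the early processing factor named above, read 1746, 2171 and 2298 on the GFP Zfx ko arrays, against 1791, 1861 and 1736 on the GFP Zfx wt arrays. Its lowest ko value was on array GFP Zfx ko 1; the difference was 0.20 (adjusted p = 0.376 in limma), and 0.32 without array GFP Zfx ko 1 (adjusted p = 0.0389). Of 11 dividing-cell genes Cdk1 and Mcm3 were called lower in ko cells under GFP virus, and the median log2 difference of the 11 was -0.12. Of 12 mast cell and basophil markers 1 was lower (4 with the block), and of 13 neutrophil markers 1 was higher (2 with the block). Only with the block, 2 of 10 myeloid progenitor markers were lower, and 2 of 6 monocyte and macrophage markers and 1 of 8 erythroid markers higher. Called or not, differences were negative for 11 of 11 dividing-cell genes, 12 of 12 mast cell and basophil markers and 9 of 10 myeloid progenitor markers. They were positive for 9 of 13 neutrophil, 5 of 6 monocyte and macrophage and 6 of 8 erythroid markers. Of all 19938 genes, 10395 had negative differences. The part of these markers was not tested.

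Of the 79 other genes of the pathway, 1, Aatf, was called between the genotypes under either virus. With the replicate block, Utp3 was also called lower and Nsa2 higher in ko cells under both viruses, and Nol7 higher under Myc virus. Aatf is a nucleolar protein of an early small subunit processing complex. It averaged 522 ± 79.5 on GFP Zfx ko arrays and 833 ± 51.1 on GFP Zfx wt arrays, and 978 ± 20.1 on Myc Zfx ko arrays and 1360.5 ± 76.2 on Myc Zfx wt arrays (SD, n = 3 each). The groups did not overlap under either virus, and Aatf was lower in ko cells in all 3 pairs of each. The log2 difference was -0.68 under GFP (SE 0.10, limma adjusted p = 0.0043) and -0.48 under Myc (SE 0.10, adjusted p = 0.0220). Under GFP virus it stayed called with each array left out in turn, and under Myc virus it did not without Myc Zfx ko 1, 2 or 3 or Myc Zfx wt 1 or 3 (adjusted p up to 0.0869, limma). It rose under Myc as the members did, by 1.89-fold in ko cells and 1.63-fold in wt cells, and the difference of these changes was not called (0.21, 95% interval -0.11 to 0.53).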

How the data were processed

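Total RNA of sorted, cultured cells was hybridised to 12 arrays. The authors deposited 1 intensity per probe set and array, made with RMA per the submitters' processing notes; the software, its version, probe positions and the build are not given in the sources here. RMA makes the arrays' distributions alike, so a change shared by most genes would not show. The deposited intensities are linear, although the analysis plan took them as log2 values, so log2 was taken before each fit. Of 35556 probe sets, 21789 have 1 gene symbol, and the brightest per gene gave 19938 genes. Groups come from the sample titles. In R 4.3.3, limma 3.58.1 (lmFit, eBayes) fitted 4 group means over 12 arrays, with 8 residual degrees of freedom, Benjamini-Hochberg adjustment over all genes and a threshold of 0.05. The number of arrays limits the precision: the median standard error of a member was 0.11 (log2), and 0.16 for the difference of the Myc changes. With the replicate number as a block these were 0.08 and 0.12. Standard errors, intervals and calls are from the fit without this block unless the block is named. Intervals are 95% intervals of single genes, not adjusted.

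The labels give replicate numbers without saying what they share. In all 18 same-numbered pairs of arrays, deviations from group means had correlations of 0.40 to 0.85, so the numbers were read as pairing the arrays. The fit with the number as a block is given where it changes a member's call or a count of calls in a list. Alternatives were this block, other scalings, log2(value + 50), another variance prior, array weights, fewer groups, probe sets or genes in the fit, a 1.5-fold minimum, and each array left out. The members, gene lists and markers were chosen with earlier results of these data known. All members may be named, with up to 4 other pathway genes per comparison by p, up to 3 markers per list by size of change, and Zfx and Myc. Ttf1, Mpo, Elane, Kit and the T cell and B cell markers were named after their values were seen.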

Additional observations from a re-analysis of the deposited data

How the results depend on the processing

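The member counts under Myc moved with the choices made, and the direction of no called member turned. In Zfx ko cells 37 members were called, 23 with only the groups compared in the fit, 17 with a change of at least 1.5-fold, and 27 to 37 with each array left out. In Zfx wt cells 35 were called, 18 with at least 1.5-fold, and 23 to 38 with each array left out, the lowest without Myc Zfx wt 3 or without GFP Zfx wt 3. Of the called members, 21 of 37 in ko cells and 21 of 35 in wt cells passed under each of the 21 alternatives without a minimum fold. Median log2 changes ranged over these alternatives between 0.47 and 0.65 in ko cells and between 0.54 and 0.62 in wt cells. Pairing the arrays by the replicate block gave 40 members in each genotype. For Zfx ko against wt with GFP, where 0 members were called, the replicate block called 3 (all lower), a second quantile normalization 1 (Mybbp1a, lower), log2(value + 50) 2 (Mybbp1a and Nob1, lower), array weights 3 (Mybbp1a and Nob1 lower, Heatr1 higher), and leaving out an array 0 to 1 (Heatr1, higher, without GFP Zfx ko 1). The other alternatives called 0. Under Myc virus, and for the difference of the Myc changes, all alternatives called 0. The causes were not tested. Among the alternatives, the share of all genes called was computed for the replicate block only, so the other member counts have no such share beside them. The block changed no call of a member other than those given in the report. No member lay below the median intensity of all probe sets (131), and the effect of dim signal on these values was not tested.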
